A study of Mus musculus with 3 samples.

Results

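The amyloid precursor protein gene App, its paralogues Aplp1 and Aplp2, the beta-secretase genes Bace1 and Bace2, the peptidase genes Ide and Mme, the protease inhibitor gene Cst3 and the membrane protein gene Itm2b were examined in mouse astrocytes made from embryonic stem cells. These 9 genes were chosen by name, and 31 of the 34958 probe sets annotated to exactly 1 gene belonged to them, out of 18194 genes in all. Embryonic stem cells had been grown as embryoid bodies for 4 days, selected for neural precursors in ITSFn medium for 5 to 7 days and expanded with FGF2 and a factor that the labels write as EGF2. After 18 passages, counted from the embryoid bodies, the precursors were turned into astrocytes by withdrawal of the growth factors and 5% FBS (fetal bovine serum) for 5 days. Total RNA of 3 samples labelled wild type was hybridised to Affymetrix Mouse Genome 430 2.0 arrays, which read 1 colour. The 3 arrays form 1 group with no control group, so each gene could be set only against the background of the same array. The labels do not say that the samples came from separate cultures, so every p-value reflects no more than how far these 3 samples varied, and that variation may be technical.

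App encodes a membrane protein that is cut in alternative ways. Alpha-secretases of the ADAM family cut within the amyloid beta segment, whereas the aspartyl protease Bace1 cuts at its start, after which the gamma-secretase complex cuts within the membrane and releases amyloid beta. Extracellular and intracellular peptidases then degrade the peptide, and secreted proteins such as cystatin C can bind it. Astrocytes are known to take up and degrade amyloid beta and to secrete several of its carriers.

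Levels are given as log2 of the deposited signal. Background was read from 78 olfactory, vomeronasal, trace-amine and taste receptor genes, and their 95th percentile on an array served as its limit (3.99, 4.10 and 4.07 on replicates 1, 2 and 3). A gene was called above background when its brightest probe set lay above the limits with a limma adjusted p below 0.05 (one-sided, Benjamini-Hochberg). A probe set's brightness depends on its own sequence, so the level of one gene was not ranked against that of another. All 10 astrocyte markers measured were called, compared with 3 of 10 neuronal, 1 of 9 microglial, 2 of 7 oligodendrocyte lineage and 1 of 10 endothelial and mural markers. Of all 18116 genes tested, 58.3% were called.

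One array stood apart. The Pearson correlation over 20663 probe sets with a mean above the limit was 0.983 between replicates 1 and 2, but 0.947 and 0.955 between replicate 3 and each of these. The ratio of the 3′ to the 5′ probe set, which follows how far labelled material reaches towards the 5′ end of a transcript, was highest on replicate 3 in all 4 mouse control transcripts with both probe sets above the limit. For actin this ratio was 1.12, 1.17 and 1.97 on replicates 1, 2 and 3, and for Gapdh it was 0.769, 0.770 and 1.24. The same held for all 8 probe-set pairs of bacterial transcripts that carry a poly(A) tail and are added to RNA as spikes, with ratios of 0.665 to 3.05 on replicate 1, 0.908 to 3.80 on replicate 2 and 1.47 to 8.20 on replicate 3. Hybridisation controls, which are supplied already labelled, had ratios of 0.920 to 1.95, 0.977 to 1.94 and 0.944 to 1.55, and 1 of their 8 pairs was highest on replicate 3. Each spike and each hybridisation control is read by more than 1 pair, so these pairs are not independent of one another. Calls and means that depend on replicate 3 are also given without it.

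**Figure D1:**
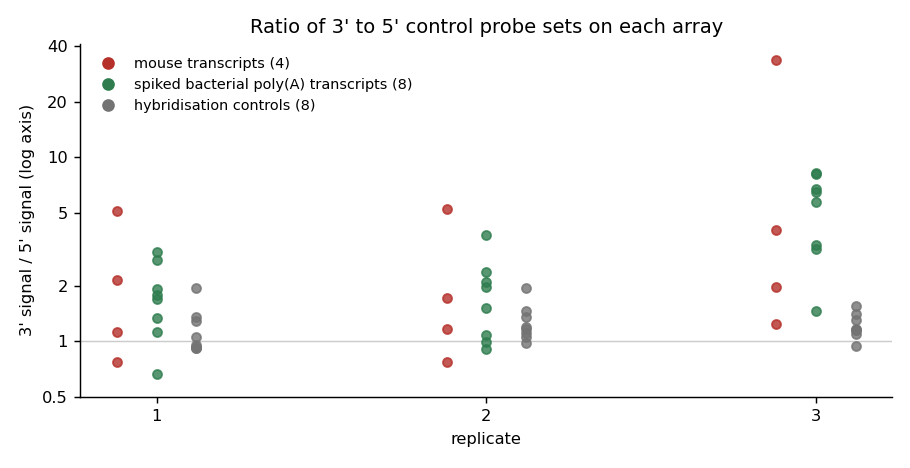
Ratio of the 3′ to the 5′ probe set (log axis) for control transcripts on replicates 1, 2 and 3, each point being 1 pair of probe sets. The 4 mouse transcripts and the 8 pairs for spiked poly(A) transcripts lie higher on replicate 3, where they reach 33.8 and 8.20, and the hybridisation controls stay between 0.920 and 1.95.

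All 9 genes were above background, against 58.3% of the 18116 genes tested (10570 genes). Each lay above the limit on each of the 3 arrays, by means of 3.52 to 9.05 log2 units. The median of the 9 distances was 7.10, beside 1.76 over all genes tested and 3.72 over the genes above background, a description only, since these are different probe sets. Each gene took its brightest probe set, and the 9 genes had 31 to choose from, against 34871 for all 18116 genes. The gene shares and medians are therefore not fully like for like. The 9 calls were also made without replicate 3, where the levels of Aplp1, Bace1, Ide and Mme were 4.30, 5.00, 4.91 and 3.48 above the limit. Of their 31 probe sets, 27 were above background, against 52.2% of the 34871 probe sets tested in the same way. The 4 that did not pass were 2 of App, 1 of Mme and 1 of Itm2b, and 28 passed without replicate 3.

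**Figure D2:**
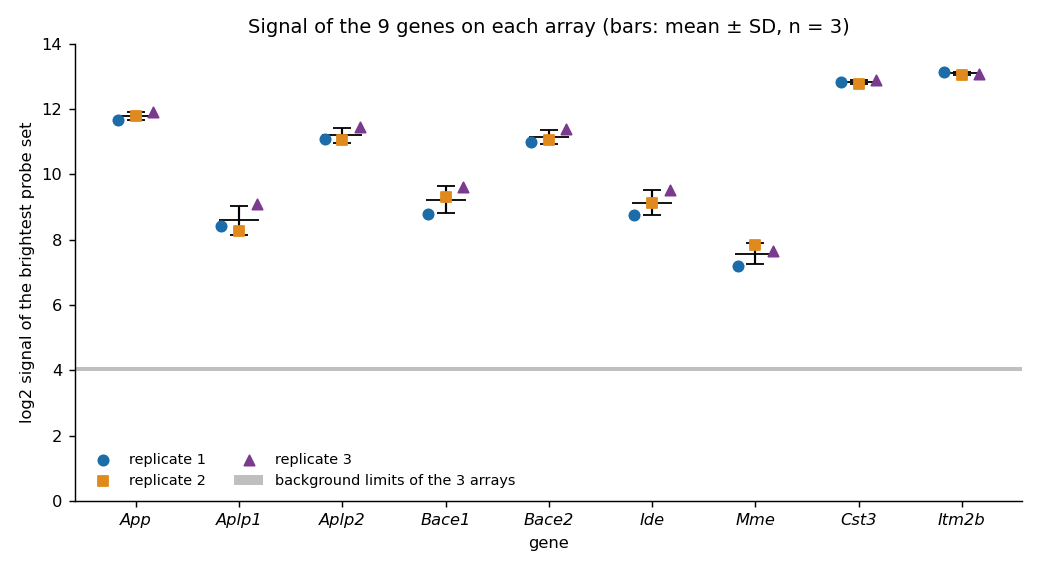
Log2 signal of the brightest probe set of each of the 9 genes on replicates 1, 2 and 3, with the mean ± SD (n = 3) in black and the range of the background limits, 3.99 to 4.10, as a grey band. Every point lies above the band, and the points of Itm2b (SD 0.04) and Cst3 (SD 0.06) nearly coincide while those of Aplp1 (SD 0.44) and Bace1 (SD 0.42) are spread out.

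App, the source of amyloid beta, had signals of 3243, 3542 and 3858 on replicates 1, 2 and 3 with probe set 1427442_a_at. These are 11.66, 11.79 and 11.91 on the log2 scale, a mean of 11.79 ± 0.13 (SD, n = 3), which is 7.74 above the limit (adjusted p = 3.85e-05, limma). The 3 arrays thus lay close together. A further App probe set, 1420621_a_at, was also above background, with signals of 1590, 1785 and 1277 and a mean log2 of 10.58 ± 0.25. It was lowest on replicate 3, where the brighter App probe set was highest. The remaining App probe sets, 1438374_x_at and 1438373_at, had mean log2 signals of 2.53 ± 0.11 and 0.95 ± 1.62 and lay below the limit on every array. Both App probe sets that passed carry the ending _a_at, which marks probe sets that match several transcripts of 1 gene. Without such probe sets, and without those ending in _s_at or _x_at, the App value rested on 1438373_at and was -3.10 log2 units from the limit.

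Aplp2, a widely expressed paralogue of App that lacks the amyloid beta segment, was above background on all 5 of its probe sets. Its brightest, 1423739_x_at, read 2163, 2152 and 2842, a mean log2 of 11.21 ± 0.23 and 7.16 above the limit (adjusted p = 3.85e-05, limma). Not all of the other Aplp2 probe sets followed it across the arrays. Probe set 1432344_a_at read 536 and 465 on replicates 1 and 2 but 62.8 on replicate 3, with log2 signals of 9.07, 8.86 and 5.97. Its mean log2 was 7.97 ± 1.73 (n = 3), and 8.96 ± 0.15 (n = 2) without replicate 3. It passed both with that array (adjusted p over all probe sets = 0.00966, limma) and without it (0.00180). Probe set 1421889_a_at was also lower on replicate 3, at 564 against 921 and 894. In contrast, 1421887_a_at (1760, 1818 and 2402) and 1421888_x_at (97.8, 98.7 and 159) were higher there, as the brightest one was. Replicates 1 and 2 differed by at most 0.21 log2 units on any of the 5.

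Aplp1, the paralogue known mainly from neurons, was above background on both of its probe sets. The brighter one, 1435857_s_at, of a kind that can bind transcripts of several genes, read 342, 310 and 551, a mean log2 of 8.60 ± 0.44 and 4.55 above the limit (adjusted p = 1.21e-04, limma). Probe set 1416134_at, which is not of that kind, read 80.4, 88.2 and 147, a mean of 6.66 ± 0.47 and 2.61 above the limit (adjusted p over all probe sets = 9.20e-04, limma). On both, replicate 3 was the high array, by 0.76 and 0.81 log2 units over the mean of the other arrays. The neuronal markers Snap25, Stmn2 and Nefl were at 2.02 ± 0.50, 1.93 ± 0.75 and 2.10 ± 0.26, all below the limit, while Syt1, Tubb3 and Rbfox3 were called at 7.24 ± 0.12, 5.83 ± 0.65 and 6.66 ± 0.30. Syt1 passed on 1 of its 4 probe sets, Tubb3 on 1 of 1 and Rbfox3 on 2 of 3. Whether neuronal cells contributed to the Aplp1 signal was not tested, and in a bulk sample a rare strongly expressing cell type and low expression in all cells cannot be told apart.

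**Figure D3:**
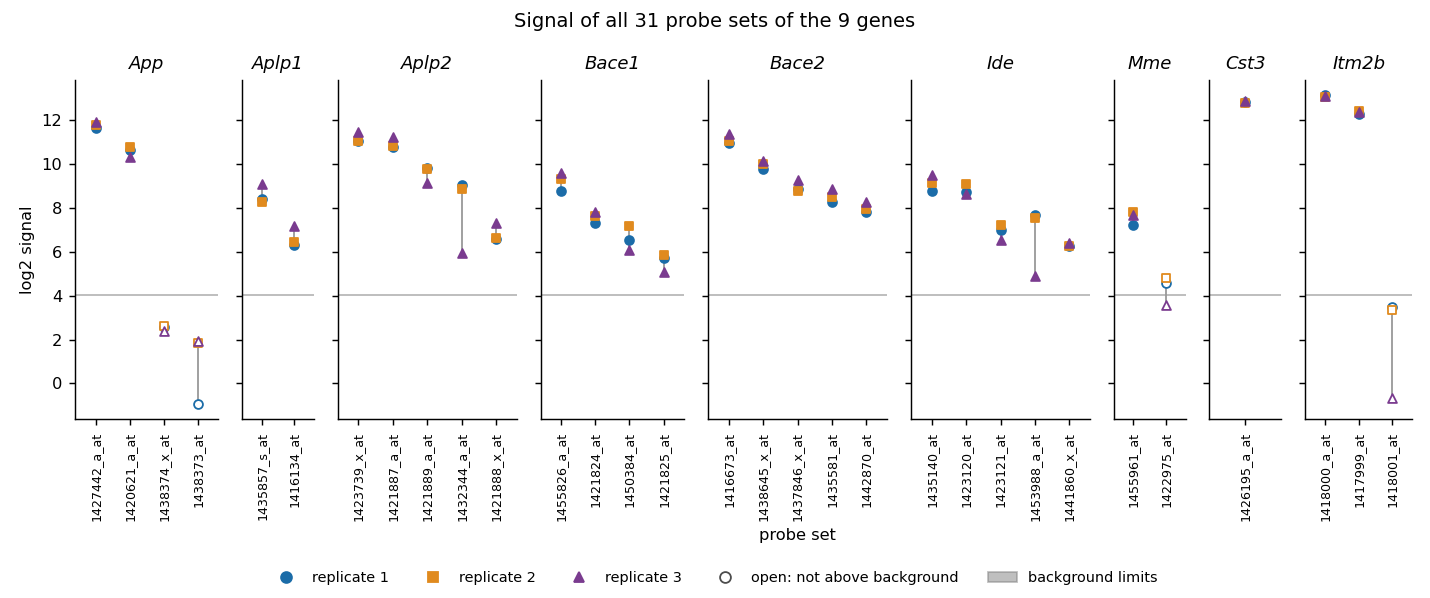
Log2 signal of all 31 probe sets of the 9 genes on replicates 1, 2 and 3, with open symbols for the 4 that were not above background and the background limits in grey. Replicate 3 lies far below the other arrays for 1432344_a_at of Aplp2 (5.97 against 9.07 and 8.86) and 1453988_a_at of Ide (4.89 against 7.70 and 7.53).

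Both beta-secretase genes were above background on every probe set, 4 of 4 for Bace1 and 5 of 5 for Bace2. Bace1, which makes the first cut on the way to amyloid beta, read 439, 636 and 781 with 1455826_a_at. The log2 signals were 8.78, 9.31 and 9.61, a mean of 9.23 ± 0.42 and 5.18 above the limit (adjusted p = 6.95e-05, limma). Replicate 1 was the low array, by 0.53 log2 units against replicate 2. The other Bace1 probe sets were at 7.60 ± 0.25 (1421824_at), 6.59 ± 0.55 (1450384_at) and 5.56 ± 0.43 (1421825_at). Of the 4, the first of these and 1455826_a_at were highest on replicate 3, whereas 1450384_at and 1421825_at were lowest there, with differences of -0.78 and -0.74 log2 units from the mean of replicates 1 and 2.

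Bace2, the paralogue of Bace1 that can cut App within the amyloid beta segment, read 2030, 2133 and 2701 with 1416673_at. Its mean log2 was 11.15 ± 0.22, which is 7.10 above the limit (adjusted p = 3.85e-05, limma). The 4 other Bace2 probe sets had means between 8.02 ± 0.21 and 9.98 ± 0.20. All 5 were highest on replicate 3, by 0.28 to 0.48 log2 units over the mean of the other arrays, so the Bace2 probe sets moved alike where those of Bace1 and Aplp2 split.

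Ide, the insulin-degrading enzyme, a zinc peptidase that also cleaves amyloid beta, was above background on all 5 of its probe sets. The brightest, 1435140_at, read 432, 566 and 738, a mean log2 of 9.14 ± 0.39 and 5.09 above the limit (adjusted p = 6.52e-05, limma). A second probe set of similar brightness, 1423120_at, read 423, 541 and 400 and was lowest on replicate 3. Probe set 1453988_a_at fell further, from 208 and 185 on replicates 1 and 2 to 29.7 on replicate 3, and passed with an adjusted p over all probe sets of 0.0233 (limma). Its mean log2 was 6.71 ± 1.57 (n = 3), and 7.62 ± 0.12 (n = 2) without replicate 3, where the adjusted p was 0.00217 (limma). Probe set 1423121_at was at 6.91 ± 0.35 and was also lowest on replicate 3, while 1441860_x_at was at 6.32 ± 0.09.

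Mme, which encodes neprilysin, a membrane-bound zinc peptidase and a main amyloid beta-degrading enzyme of brain, read 148, 227 and 204 with 1455961_at. The mean log2 was 7.57 ± 0.32, which is 3.52 above the limit (adjusted p = 1.06e-04, limma). Replicate 1 was lowest, and replicates 2 and 3 lay close together. The other Mme probe set, 1422975_at, read 24.2, 27.7 and 12.2. It lay above the limit on 2 of 3 arrays and below it on replicate 3, with a mean of 4.33 ± 0.64, which missed the threshold (limma adjusted p = 0.379). Without replicate 3 it passed, at 4.69 ± 0.14 (SD, n = 2) and 0.65 above the limit (adjusted p = 0.0310, limma). With all 3 arrays the call of Mme rests on 1 of its 2 probe sets.

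Cst3 encodes cystatin C, a secreted inhibitor of cysteine cathepsins that binds amyloid beta. Its single probe set, 1426195_a_at, read 7288, 7023 and 7644, a mean log2 of 12.84 ± 0.06 and 8.78 above the limit (adjusted p = 3.85e-05, limma). Itm2b encodes a membrane protein, also called BRI2, that binds App and restrains its processing. With 1418000_a_at it read 9069, 8556 and 8696, a mean log2 of 13.10 ± 0.04 and 9.05 above the limit (adjusted p = 3.85e-05, limma). A further Itm2b probe set, 1417999_at, read 5003, 5498 and 5379 and was at 12.37 ± 0.07. The remaining one, 1418001_at, read 11.1, 10.3 and 0.640, below the limit on every array. Among the brightest probe sets of the 9 genes, those of Cst3 and Itm2b had the smallest SD across arrays, while saturation at such signals could not be examined and 1418001_at had an SD of 2.35. Both are also abundant in microglia, and of 9 microglial markers Csf1r was called, at 5.34 ± 0.18, while Aif1, Itgam and C1qa were at 1.79 ± 1.62, 1.98 ± 1.19 and -0.14 ± 0.63, below the limit. Csf1r passed on 1 of its 3 probe sets.

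Across the 9 genes the median SD over the arrays was 0.23 log2 units, compared with 0.24 over all genes above background. It was below that value for 5 genes (App, Aplp2, Bace2, Cst3 and Itm2b) and above it for 4 (Aplp1, Bace1, Ide and Mme). Over replicates 1 and 2 alone the median SD was 0.09 for the 9 genes and 0.15 for all genes above background. The brightest probe set was highest on replicate 3 for 7 of the 9 genes, and this was so for 64.3% of all genes above background. The exceptions were Mme, highest on replicate 2, and Itm2b, highest on replicate 1.

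Among the probe sets of the 9 genes, 28 had a mean level over the limit, and these were compared between arrays, a comparison chosen after the values were seen. Replicate 3 differed from the mean of replicates 1 and 2 by a median of 0.17 log2 units, close to the 0.16 found over all 20663 such probe sets. It was lower by more than 1 log2 unit for 3 probe sets, one each of Aplp2 (-2.99), Ide (-2.72) and Mme (-1.09), against 6.03% of all probe sets. None of the 28 was higher by more than 1 log2 unit, against 2.28% of all. With counts this small, the shares of the 28 cannot be told from those of all probe sets. Replicate 2 minus replicate 1 gave differences from -0.21 to 0.62 for the 28, none of them beyond 1 log2 unit, against 0.537% of all probe sets lower and 2.23% higher by that much. The 3′ to 5′ ratios of the controls moved with replicate 3 as well, and their part in these differences was not tested.

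**Figure D4:**
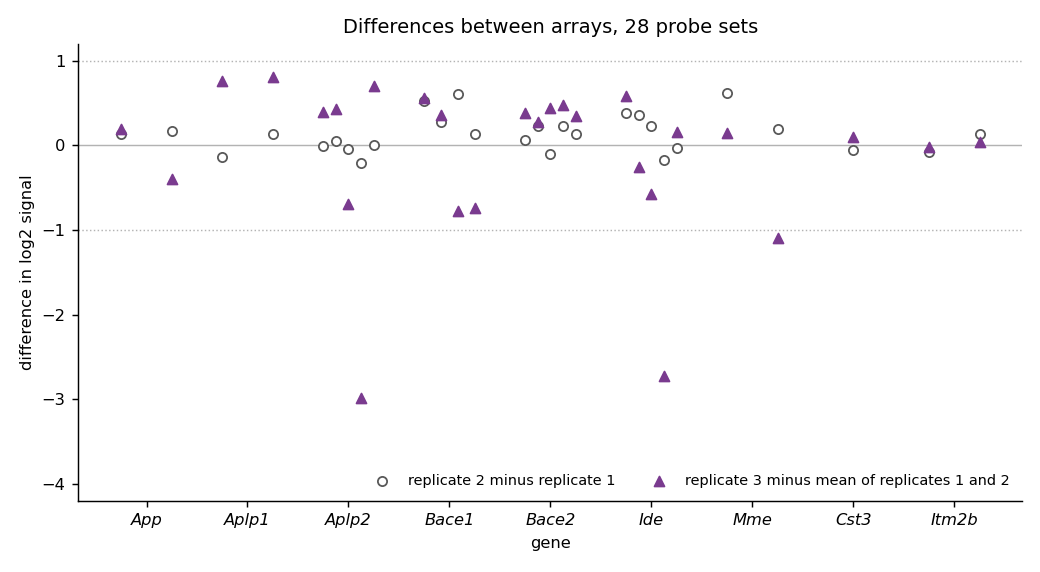
Difference in log2 signal between arrays for the 28 probe sets of the 9 genes with a mean above the background limit, as replicate 3 minus the mean of replicates 1 and 2 (triangles) and replicate 2 minus replicate 1 (open circles), with dotted lines at 1 and -1. The circles stay between -0.21 and 0.62, and the triangles reach -2.99 for Aplp2 and -2.72 for Ide while other probe sets of the same genes lie above 0.

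The other genes of the pathway were read from 8 lists arranged by role, and 51 of their 67 measured genes (76.1%) were above background, beside 58.3% of all genes tested. Without replicate 3 the count was 47 of 67, beside 10460 of 18116 for all genes tested. The counts of single lists below were made with all 3 arrays, so they include calls that were lost without replicate 3. All 5 gamma-secretase genes measured were called. Psen2, a catalytic presenilin, was at 7.73 ± 0.37, and nicastrin (Ncstn), the subunit that receives substrates, was at 8.46 ± 0.16. The scaffold subunits Aph1a and Aph1b were at 9.17 ± 0.37 and 8.70 ± 0.24, and Psenen, which completes the complex, was at 10.83 ± 0.10. Psen2 and Ncstn each passed on 1 of 2 probe sets, and Ncstn did not pass when its probe sets were summarised by their median. The 3 alpha-secretase genes were also called, with Adam10, the main constitutive enzyme, at 10.50 ± 0.34, Adam17 at 8.98 ± 0.26 and Adam9 at 12.17 ± 0.24. The gamma-secretase list had a median of 4.65 log2 units above the limit and the alpha-secretase list 6.44, each beside 1.76 over all genes tested and not compared with the other.

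Of 13 further peptidase genes whose products can cleave amyloid beta, 7 were above background, a share of 53.8%, close to the 58.3% of all genes tested. Their median was 0.83 above the limit, beside 1.76 over all genes tested. The endothelin-converting enzymes Ece1 and Ece2 were at 6.29 ± 0.29 and 6.26 ± 0.14 and were called. Ece1 passed on 2 of its 3 probe sets and Ece2 on 1 of 2. With the probe set median they lay 1.35 and 0.73 above the limit and were still called. Ace, the angiotensin-converting enzyme, had a level of 4.85 ± 0.69 that missed the threshold (limma adjusted p = 0.0581). It lay 0.80 log2 units above the limit and passed under 5 of 13 alternatives, which were the limit at the 90th percentile, log2(signal + 16), a filter on low genes, another variance model and leaving out replicate 1 (1.08). Mmel1, a relative of neprilysin, was at 3.14 ± 1.14, below the limit, so Mme was called and this relative was not.

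Of 9 genes for carriers and uptake receptors, 6 were called, a share of 66.7%, near the 58.3% of all genes tested. Clusterin (Clu) and apolipoprotein E (Apoe), secreted lipid carriers that bind amyloid beta, were at 13.03 ± 0.07 and 12.85 ± 0.07. Lrp1, an endocytic receptor for their complexes, was at 9.20 ± 0.19, and Abca1, which loads lipid onto Apoe, was at 11.38 ± 0.15. Lrp1 passed on 1 of its 2 probe sets. Cd36 was called narrowly, at 0.47 above the limit (adjusted p = 0.0373, limma), and 0 of its 3 probe sets passed when adjusted over all probe sets. The genes that did not pass were Ttr, the thyroid hormone carrier transthyretin, at 2.70 ± 0.94, the scavenger receptor gene Msr1 at 1.13 ± 1.49, and Ager, the receptor for glycation end products. Ager read 0.50 and 0.59 on replicates 1 and 2 and 5.46 on replicate 3 on the log2 scale, so it lay above the limit on replicate 3 alone.

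All 14 genes for App adaptors and sorting proteins were called, with a median of 4.65 above the limit, though Apba1 did not pass with the median of its 3 probe sets. The Mint adaptors Apba1, Apba2 and Apba3 were at 5.86 ± 0.69, 7.49 ± 0.30 and 7.09 ± 0.25, and Apbb1, which encodes the Fe65 adaptor that binds the App tail, was at 9.08 ± 0.37. Among 9 genes for reticulons, which bind Bace1 and lower its activity, and for Bace1 substrates, 7 were called (77.8%, beside 58.3% of all genes tested). The reticulon genes Rtn1, Rtn3 and Rtn4 were at 11.96 ± 0.17, 11.80 ± 0.24 and 12.16 ± 0.16. The substrate genes Nrg1 and Chl1 were at 4.07 ± 0.25 and 4.35 ± 0.68 and did not pass (adjusted p = 0.716 and 0.305, limma), though Chl1 passed without replicate 1, at 0.66 log2 units above the limit in place of 0.30.

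Of 8 other cystatins and cysteine proteases that cystatins inhibit, 3 were called, a share of 37.5% beside 58.3% of all genes tested. They were the intracellular inhibitor Cstb at 9.66 ± 0.14, the lysosomal cathepsin Ctsl at 12.15 ± 0.05 and legumain (Lgmn) at 10.24 ± 0.08. The secreted cystatins Cst6 and Cst7 were at 1.13 ± 0.11 and 1.38 ± 0.47, and the cathepsins Ctss, Ctsh and Ctsk at 3.12 ± 0.92, 0.84 ± 2.15 and 2.24 ± 0.98, all with means below the limit. The median of this list lay below the limit, at -1.37. Ctsb, also a cysteine cathepsin, was counted with the further peptidases instead and was called, at 12.45 ± 0.06. All 6 genes of the Itm2 family and the proprotein convertases, which trim Itm2b and Bace1 precursors among other proteins, were called. The Itm2b paralogues Itm2a and Itm2c were at 9.49 ± 0.11 and 13.04 ± 0.11, and Furin and Pcsk5 were at 7.29 ± 0.17 and 6.09 ± 0.42. Pcsk5 did not pass with the median of its 5 probe sets.

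**Figure D5:**
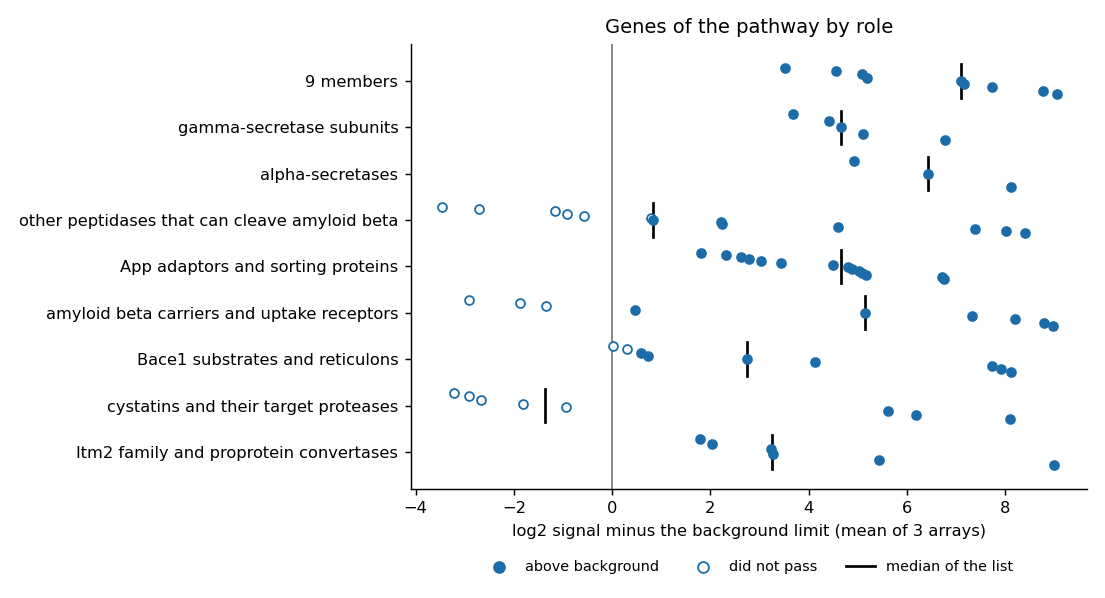
Mean log2 signal minus the background limit (n = 3) for the 9 genes and for the measured genes of 8 pathway lists, with filled points for genes above background and a black bar at the median of each list. The 9 genes lie between 3.52 and 9.05, every gene of 4 lists is filled, and the list of cystatins and their target proteases has its median at -1.37.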

How the data were processed

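Each array has 1 deposited intensity for every probe set, not on a log scale. GCOS 1.4 is named in the submitters' processing notes; its settings and scaling target are not given in the sources read. Of 45101 probe sets, 34958 had 1 gene in the platform annotation, 932 had several, none of them with one of the 9 genes, and 9211 had none or were controls. Entrez identifiers of all 9 genes matched the GRCm38.p6 gene table, and 0 symbols changed. The values name no build, and coordinates are left out. Log2 was taken with no pseudocount, and each gene took its probe set with the highest mean. Limma 3.58.1 in R 4.3.3 tested log2 signal minus each array's limit (lmFit, eBayes, 1 sample), fitted and adjusted over all 18116 genes, or over all 34871 probe sets, and 10713 genes had an unadjusted p below 0.05. In simulated data (18116 genes), 93.0% of 200 genes placed 1 log2 unit above the limit were called, 100% of 200 at 2 units, and 0.500% of 200 whose mean levels were drawn from the receptor genes.

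The 9 genes, the gene lists and the tests were chosen with earlier results of these data known. Named were all 9 genes, all gamma- and alpha-secretase genes, the first 4 measured genes of the other pathway lists, and the called or uncalled genes of a list where these numbered 5 or fewer. Cd36 and Ctsb were added after their values were seen, and the counts of alternatives for named pathway genes leave them out. Among the 5 marker lists (astrocyte, neuron, microglia, oligodendrocyte lineage, endothelial and mural), the genes named were chosen after their values were seen. No values were identical between arrays in any probe set. The alternatives tried were other probe set rules, limits, normalizations, a pseudocount, a filter, a variance model and leaving out each array.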

Additional observations from a re-analysis of the deposited data

How the results depend on the processing

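With 13 alternatives per gene where a value could be had, 114 of 115 values of the 9 genes kept their direction and call. The exception was App without probe sets ending in _s_at, _x_at or _a_at, at -3.10 log2 units from the limit. Under that setting 6 of the 7 genes with a probe set left were above background, beside 9070 of 16515 of all genes tested. Aplp2 and Cst3 had no probe set left. Leaving out 1 array gave 9 of 9 genes, 26 to 28 of 31 probe sets, 47 to 50 of 67 pathway genes and 10237 to 10460 of all genes. The median SD of the 9 genes was 0.09 without replicate 3, 0.21 without replicate 1, 0.29 without replicate 2, 0.16 after quantile normalization, 0.31 after median scaling and 0.32 without probe sets ending in _s_at, _x_at or _a_at.

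Of 508 values of named pathway genes under alternatives, 490 kept direction and call. Calls were lost by Ncstn (0.80 above the limit), Apba1 (0.22) and Pcsk5 (0.18) with the probe set median, and by Pcsk5 (0.17) without probe sets ending in _s_at, _x_at or _a_at. Under these settings 44 of 67 and 42 of 59 pathway genes were above background, beside 9158 of 18116 and 9070 of 16515 of all genes tested. Those that reversed were Psen2 at -2.35 and Ace at -1.49 without probe sets ending in _s_at, _x_at or _a_at, Ace at -0.32 and Chl1 at -2.21 with a gene's probe sets summarised by their median, Chl1 at -0.07 and Nrg1 at -0.35 with the limit at the 99th percentile, and Nrg1 when 1 array was left out, from -0.05 (without replicate 1 or 2) to 0.17. The cause was not tested. No paired analysis was possible because the design has 1 group. The number of arrays limits the precision, and genes less than 1 log2 unit over the limit can go uncalled. Saturation could not be examined.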
